A study of Bos taurus with 24 samples.

Results

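The genes described here are 39 genes of the integrated stress response and the unfolded protein response, chosen by gene name from a fixed list. All 39 were found among the 27570 genes of the series, and all 39 were abundant enough to enter every test. They were measured by RNA-seq in cultured cells grown from pre-adipocytes of subcutaneous fat from 6 Holstein cows. Cells were differentiated in medium with 10% fetal bovine serum and 5 µM troglitazone, a drug that activates the adipocyte regulator PPARG, and with IBMX and dexamethasone for the first 48 h. The added fatty acids were palmitic acid (PA, saturated, 300 µM), oleic acid (OA, monounsaturated, 300 µM) or a mixture of 60% palmitic and 40% oleic acid (MIX, 300 µM in total), and control cultures (CON) had none. Cows 4, 5 and 6 gave the day 4 cultures, in which fatty acids were present during induction. Cows 1, 2 and 3 gave the day 7 cultures, in which fatty acids were given from 48 h after induction. Each cow gave 1 library per treatment, so there are 3 libraries per treatment and day and 24 in all. Day, cow and time of treatment change together and cannot be told apart.

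Cells that accumulate misfolded protein in the endoplasmic reticulum (ER), or run short of amino acids, slow general protein synthesis and switch on a set of rescue genes. Of the sensors in the ER membrane, IRE1 (gene ERN1) splices XBP1 mRNA, PERK (EIF2AK3) phosphorylates the initiation factor eIF2, and ATF6 is released to become a transcription factor. Phosphorylated eIF2 favours translation of ATF4, which with its partners drives DDIT3 (CHOP), TRIB3, ASNS and other genes, while XBP1 and ATF6 drive ER chaperones and degradation factors. Palmitic acid is widely used to provoke this response in cultured cells of several tissues, and oleic acid is often given beside it as the unsaturated counterpart.

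Libraries of day 4 held 13509548 to 17071654 counts, and those of day 7 held 14118798 to 24008811 recovered reads. Fibroblast and pre-adipocyte markers were all present, with 10 of 10 at a mean of 1 FPKM or more on both days (FPKM is a read count scaled for gene length and library size). Of the adipocyte markers, 5 of 10 reached that mean at day 4 and 2 of 10 at day 7. At day 4 these were FABP4 (mean 30.3 FPKM), LIPE (4.00), GPD1 (3.18), PPARG (3.07) and PLIN1 (1.85). At day 7 they were GPD1 (2.03) and PLIN1 (1.05), with FABP4 at 0.41 FPKM and PPARG at 0.23 FPKM. ADIPOQ, the defining adipokine, was listed at 0 in 10 of 12 libraries at day 4 and in 12 of 12 at day 7. Endothelial markers reached 1 FPKM in 0 of 5 cases on either day, and 2 of 7 leukocyte markers did. Of the smooth muscle and myofibroblast markers, 6 of 7 reached a mean of 1 FPKM at day 4 and 5 of 7 at day 7. They summed to 321 to 2727 FPKM per library at day 4 and 1625 to 5949 FPKM at day 7. TAGLN was the highest, at means of 851 and 2266 FPKM at days 4 and 7. MYH11 was low, at means of 0.67 and 0.54 FPKM, and so was DES, at 1.20 and 0.36 FPKM. The cultures thus expressed fibroblast markers and some of the smooth muscle or myofibroblast markers. Adipocyte markers were present in part at day 4, FABP4 the highest, and few reached 1 FPKM at day 7. In such bulk samples fewer cells of a type and less RNA per cell cannot be told apart.

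The stress genes were expressed in every culture, with or without fatty acid. In the day 4 libraries 11 of the 39 averaged at least 100 FPKM and 37 of 39 reached 1 FPKM in every library, and at day 7 these numbers were 13 and 39. At day 4 the highest was NUPR1, a small stress-induced chromatin protein, at 600 to 1617 FPKM over the 12 libraries. ATF4 followed at 195 to 652 FPKM, and then HSPA5 (BiP, the main ER chaperone) at 99.9 to 485 FPKM. At the low end stood CHAC1, an enzyme that breaks down glutathione, at 0.158 to 6.25 FPKM. Among the sensors ATF6 was highest at 5.37 to 22.3 FPKM, while ERN1 reached 2.21 to 11.3 FPKM at day 4 and 1.71 to 3.48 FPKM at day 7.

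Levels at day 7 were ordered somewhat differently, although the 2 tables were normalised separately and no test was made between them. NUPR1 still ranked first at 242 to 703 FPKM. Next came CALR (calreticulin, an ER lectin chaperone) at 271 to 613 FPKM, against 127 to 353 FPKM at day 4. GDF15, a secreted stress cytokine, lay at 11.7 to 127 FPKM at day 7, against 0.605 to 12.4 FPKM at day 4. SDF2L1, a cofactor of BiP, was at 9.35 to 21.7 FPKM at day 7, against 2.32 to 8.16 FPKM at day 4.

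Levels of these genes varied far more with the cow than with the fatty acid. Of the variance of log2(FPKM + 1) over the 12 libraries of a day, the cow took a median of 96.2% for the 39 genes at day 4 and the treatment 1.34%. At day 7 the medians were 89.3% for the cow and 3.27% for the treatment. Over all genes tested the cow took a median of 87.3% at day 4 and 78.0% at day 7, and the treatment 3.15% and 6.55%. In 24 of the 39 genes at day 4, and in 13 at day 7, the 4 libraries of each cow did not overlap those of either other cow, beside 29.1% of all genes tested at day 4 and 19.4% at day 7.

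HSPA5 is an example. It stood at 99.9 to 116 FPKM in the 4 cultures of cow 4, at 219.6 to 281 FPKM in those of cow 5 and at 403 to 485 FPKM in those of cow 6. DDIT3 (CHOP), a transcription factor linked to ER stress and cell death, was at 28.8 to 34.3 FPKM in cow 4, at 16.2 to 18.4 FPKM in cow 5 and at 39.6 to 45.7 FPKM in cow 6. Both genes thus had cow 6 on top, with cows 4 and 5 in opposite order. Cow 6 had the highest mean of the 3 cows for 28 of the 39 genes, and at day 7 cow 3 had it for 18. The same share was not counted over all genes, so neither count can be read as particular to the stress genes.

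Since the 4 cultures of a cow share an animal, log2 differences of single genes are given from fits that take the cow as a block, with their standard errors (SE), 95% intervals and p-values adjusted over all genes tested. Day 4 values come from edgeR on counts and day 7 values from limma on log2(FPKM + 1), which understates the differences of low genes. A gene is called when its adjusted p is under 0.05.

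None of the 39 genes was called in any of the 6 comparisons of treatments at either day. With the cow as a block, edgeR at day 4 called 0.0736% of the 13580 genes tested for OA against CON, 0.221% for OA against PA and 0% for the other 4 comparisons, and limma at day 7 called 0% of 12615 genes in each comparison. Without the block both tools called 0% of genes in all 12 comparisons, and 0 of the 39 genes had an unadjusted p under 0.05. With the block, 43 of the 468 values of the 39 genes had an unadjusted p under 0.05, beside 5.59% of the values of all genes. DESeq2 at day 4, limma at day 4 and edgeR on the recovered reads of day 7 also called 0 of the 39, with or without the block, except for GDF15 in 1 fit described below. In the authors' deposited table for day 4, 0 of the 39 genes had a p-value under 0.05 in any of 6 comparisons, the smallest being 0.425 for GDF15 in MIX against PA.

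**Figure D1:**
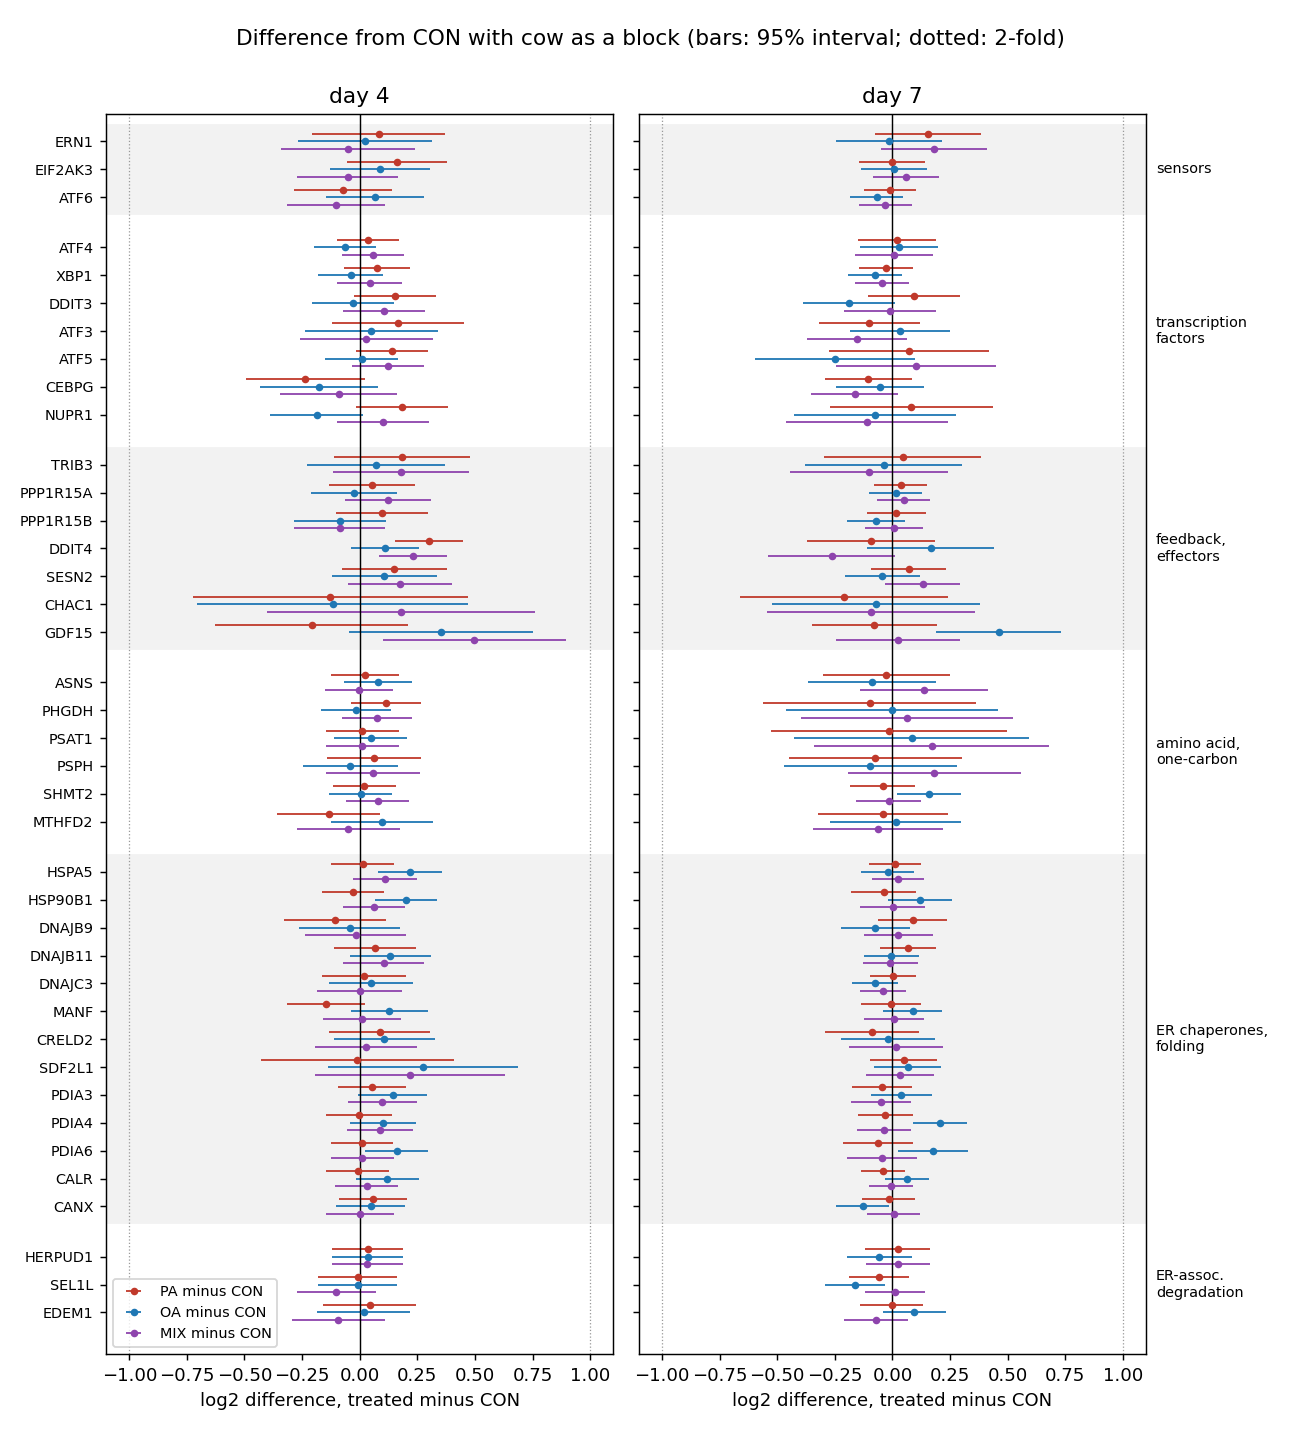
Log2 difference from CON of the 39 genes with the cow as a block, for PA, OA and MIX, with day 4 (edgeR on counts) on the left and day 7 (limma on log2(FPKM + 1)) on the right; points are estimates, bars are 95% intervals and dotted lines mark 2-fold. Every interval lies within 2-fold in each comparison shown, and few exclude 0, such as DDIT4 for PA at day 4 (0.16 to 0.45) and PDIA4 for OA at day 7 (0.09 to 0.32).

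Palmitic acid against CON asks whether the saturated fatty acid alone brought out the response in mRNA levels. At day 4, 27 of the 39 genes were higher in PA cultures, beside 49.3% of all genes tested. The median log2 difference of the 39 was 0.03, beside -0.0015 for all genes tested. One gene, DDIT4, had an unadjusted p under 0.05, which is 2.6% of the 39 beside 3.16% of all genes. The 95% interval of the difference lay within 2-fold for 39 of 39 genes and within 1.5-fold for 37.

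DDIT4 (REDD1) is a stress-induced inhibitor of the growth kinase mTORC1, on chromosome 28 at 28323892 to 28325899, plus strand, in the files' coordinates, whose build is not given. It measured 74.7, 55.5 and 159 FPKM in the PA cultures of cows 4, 5 and 6, against 62.7, 40.5 and 135 FPKM in their CON cultures. PA was higher in 3 of 3 cows, while the 2 groups overlapped across cows. The log2 difference was 0.30 ± 0.07 (SE; interval 0.16 to 0.45; edgeR adjusted p = 0.443). When only the PA and CON libraries entered the fit it was 0.30 ± 0.07 with an adjusted p of 0.0258, beside 0.199% of 13034 genes called.

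The mRNA levels of the classical markers of the response lay near those of CON. Splicing of XBP1, phosphorylation of eIF2 and translation of ATF4 were not measured, so these levels do not show the state of the sensors. DDIT3 measured 34.3, 18.4 and 45.3 FPKM in PA cultures of cows 4, 5 and 6, against 28.8, 17.3 and 41.4 FPKM in CON cultures. PA was the higher in 3 of 3 cows, by 0.15 ± 0.09 with an interval of -0.02 to 0.33. HSPA5 differed by 0.01 (interval -0.12 to 0.15), ATF4 by 0.03 (-0.10 to 0.17) and XBP1 by 0.07 (-0.07 to 0.22). ASNS (asparagine synthetase), a standard target of ATF4, differed by 0.02 (-0.13 to 0.17). TRIB3, a pseudokinase that restrains the response, was less precise at 0.18 (-0.11 to 0.48). Each of these had an edgeR adjusted p of 0.9998.

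By role, the 7 transcription factors had a median difference of 0.14 between PA and CON at day 4, with 6 higher. Among these, NUPR1 differed by 0.18 ± 0.10 and was higher in PA in 2 of 3 cows, and CEBPG, a partner of ATF4 whose record in the file is annotated as a long non-coding RNA, differed by -0.24 ± 0.13 and was lower in 3 of 3. Both had an edgeR adjusted p of 0.9998. The 7 feedback genes and effectors had a median of 0.10, the 6 amino acid and one-carbon enzymes 0.02, and the 13 ER chaperones and folding enzymes 0.01, of which 7 were higher.

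In the day 7 cultures PA again left the 39 genes near their CON levels. Here 15 of 39 were higher in PA, beside 46.7% of all genes, and the median was -0.02 against -0.01 for all genes. An unadjusted p under 0.05 was found for 0 of 39, beside 4.28% of all genes. All 39 intervals lay within 2-fold and 38 within 1.5-fold. The smallest p belonged to ERN1, the sensor IRE1, at 3.27, 3.21 and 2.73 FPKM in PA cultures of cows 1, 2 and 3 and 3.06, 2.68 and 2.26 FPKM in CON cultures (0.15 ± 0.10, limma adjusted p = 0.998). HSPA5 differed by 0.01 (-0.10 to 0.13), DDIT3 by 0.09 (-0.11 to 0.29), ATF4 by 0.02 (-0.15 to 0.19) and XBP1 by -0.03 (-0.15 to 0.09). DDIT4 differed by -0.09 (-0.37 to 0.18) and was higher in PA in 1 of 3 cows. TRIB3 and ASNS differed by 0.04 (-0.30 to 0.39) and -0.03 (-0.30 to 0.25). Both co-chaperones of BiP named by the smallest p, DNAJB9 (0.09 ± 0.07) and DNAJB11 (0.07 ± 0.05), had a limma adjusted p of 0.998.

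**Figure D2:**
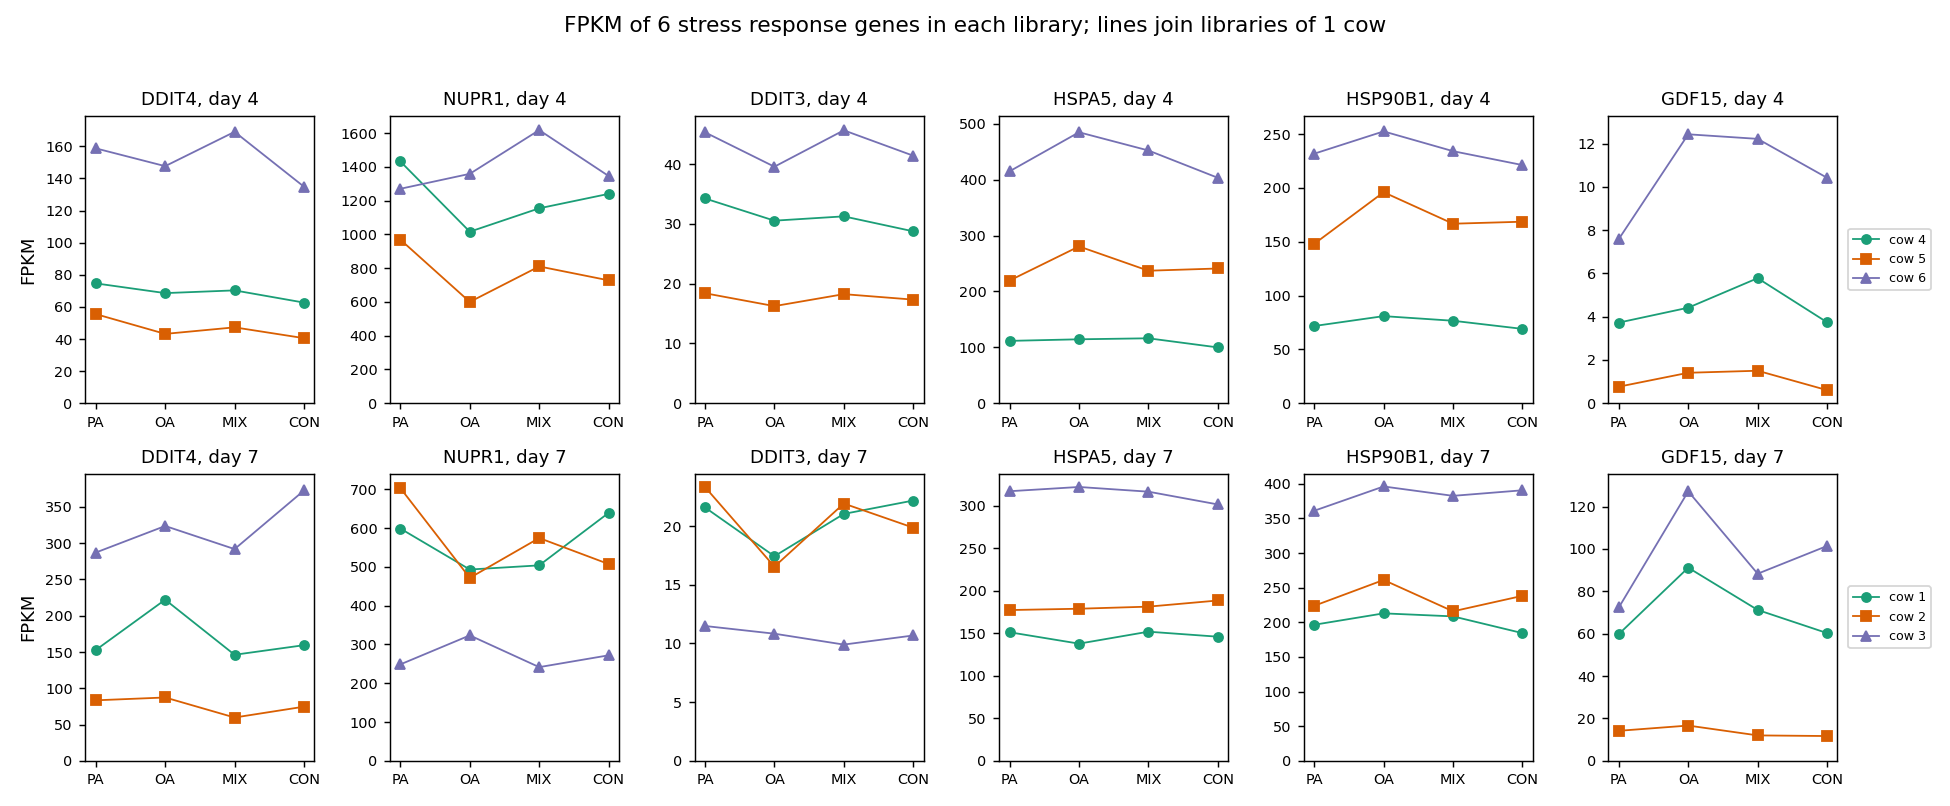
FPKM of DDIT4, NUPR1, DDIT3, HSPA5, HSP90B1 and GDF15 in each library, for PA, OA, MIX and CON from left to right, with day 4 above and day 7 below; each line joins the libraries of 1 cow and the vertical axes start at 0. The lines of the cows are mostly separate and flat, with NUPR1 of cows 4 and 5 lower in OA (1016 and 600 FPKM) than in PA (1432 and 969 FPKM) as a visible step.

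Oleic acid against CON gave its smallest p-values among ER chaperones. At day 4, 27 of the 39 genes were higher in OA, the same number as in PA, beside 47.9% of all genes tested. The median log2 difference of the 39 was 0.05. PA, OA and MIX were each set against the same CON cultures. Of the 13 ER chaperones and folding enzymes, 12 were higher in OA. The median of these 13 was 0.13, while all genes tested had a median of -0.01. HSPA5, HSP90B1 and PDIA6 had an unadjusted p under 0.05, which makes 3 of the 39 genes or 7.7%, beside 5.20% of all genes.

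HSPA5 lies on chromosome 11 at 96115141 to 96119503, minus strand, in the files' coordinates. It measured 114, 281 and 485 FPKM in OA cultures of cows 4, 5 and 6, against 99.9, 241 and 403 FPKM in CON cultures. OA was higher in 3 of 3 cows, although the spread between cows was far wider. The log2 difference was 0.22 ± 0.07 (interval 0.08 to 0.36; edgeR adjusted p = 0.451).

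HSP90B1 (GRP94), the ER member of the HSP90 family, measured 80.9, 196 and 252 FPKM in OA cultures, against 69.0, 169 and 221 FPKM in CON cultures. Its difference was 0.20 ± 0.07 (interval 0.07 to 0.34; edgeR adjusted p = 0.562), again higher in 3 of 3 cows. PDIA6, a protein disulfide isomerase, differed by 0.16 ± 0.07 (edgeR adjusted p = 0.868), with 3 of 3 cows higher. These chaperones thus lay slightly above CON in the OA cultures of each cow, without passing the threshold.

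The transcription factors of the response did not share this position at day 4. Of these 7 genes 2 were higher in OA, with a median of -0.04. All 3 sensors were higher, with a median of 0.07, and so were 4 of the 7 feedback genes and effectors, with a median of 0.07. DDIT3 differed by -0.03 (-0.21 to 0.15), ATF4 by -0.06 (-0.20 to 0.07), XBP1 by -0.04 (-0.18 to 0.10), TRIB3 by 0.07 (-0.23 to 0.37), ASNS by 0.08 (-0.07 to 0.23) and DDIT4 by 0.11 (-0.04 to 0.26), with edgeR adjusted p-values of 0.982 to 0.997. Of the 7 smooth muscle and myofibroblast markers 1 was called for OA against CON at day 4, beside 0.0736% of all genes tested. This was ACTG2, an actin nearly identical in sequence to others (0.59 ± 0.09, edgeR adjusted p = 0.00715). ACTA2 differed by 0.48 ± 0.10 and did not pass the threshold (edgeR adjusted p = 0.0620). The summed level of the 7 markers was 420 to 2670.1 FPKM in OA cultures and 321 to 2327 FPKM in CON cultures. These ranges overlap but run across cows, and the sums were not compared within each cow. The part of these markers in the values of the chaperones was not tested.

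At day 7 the genes with the smallest p-values for OA against CON were partly others. Higher in OA were 17 of the 39 genes and 7 of the 13 ER chaperones and folding enzymes, beside 52.1% of all genes. The median of these 13 was 0.04. Of the 39 genes 6 had an unadjusted p under 0.05, or 15.4%, beside 9.27% of all genes: GDF15, SHMT2, PDIA4 and PDIA6 were higher in OA in 3 of 3 cows, and CANX and SEL1L were lower in 3 of 3. PDIA4, another disulfide isomerase, measured 119, 130.2 and 178 FPKM in OA cultures of cows 1, 2 and 3, against 93.5, 113 and 169 FPKM in CON cultures. Its difference was 0.21 ± 0.05 (interval 0.09 to 0.32; limma adjusted p = 0.426).

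GDF15 stood at 91.2, 16.7 and 127 FPKM in OA cultures, against 60.3, 11.7 and 101 FPKM in CON cultures of cows 1, 2 and 3. OA was higher in each cow, and the levels of cow 2 lay far below those of the other cows in either group. Its difference was 0.46 ± 0.12 (interval 0.19 to 0.73; limma adjusted p = 0.426). SEL1L, the adaptor of the ER degradation ligase, measured 24.9, 24.8 and 23.4 FPKM in OA cultures, against 26.2, 30.7 and 25.5 FPKM in CON cultures. The groups did not overlap, and the difference was -0.16 ± 0.06 (limma adjusted p = 0.484).

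HSPA5 at day 7 differed by -0.02 between OA and CON (-0.13 to 0.09), and XBP1 by -0.08 (-0.19 to 0.04). DDIT3 measured 17.4, 16.5 and 10.8 FPKM in OA cultures, against 22.2, 19.9 and 10.7 FPKM in CON cultures, and was lower in cows 1 and 2 (-0.19 ± 0.09, limma adjusted p = 0.567). DDIT4 differed by 0.17 ± 0.12, ATF4 by 0.03 ± 0.08, TRIB3 by -0.04 ± 0.15 and ASNS by -0.09 ± 0.12, with limma adjusted p-values of 0.708 to 0.963.

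The amino acid enzymes differed between OA and CON in opposite directions in different cows at day 7. These 6 enzymes make serine, glycine, asparagine and one-carbon units, and most are targets of ATF4. Their median difference within a cow, on log2(FPKM + 1), was 0.39 in cow 1, -0.47 in cow 2 and 0.04 in cow 3, against a fitted median of 0.01 over the cows. The same measure at day 4 was 0.09 in cow 4, 0.02 in cow 5 and -0.08 in cow 6.

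PSAT1, the transaminase of serine synthesis, stood at 35.6, 23.8 and 11.03 FPKM in OA cultures of cows 1, 2 and 3, against 20.7, 34.7 and 10.8 FPKM in their CON cultures. OA was higher in cow 1 and lower in cow 2. PHGDH, the first enzyme of that pathway, measured 97.9, 91.0 and 137 FPKM in OA cultures, against 69.4, 139 and 127 FPKM in CON cultures, with the same split. ASNS measured 19.6, 23.4 and 16.3 FPKM in OA cultures, against 17.3, 33.0 and 15.7 FPKM in CON cultures. PSPH, the phosphatase that ends serine synthesis, had 20.7, 17.3 and 16.3 FPKM in OA cultures, against 17.6, 24.2 and 16.9 FPKM in CON cultures. SHMT2, which moves one-carbon units from serine in mitochondria, was the exception, with OA higher in each cow at 127, 104 and 143 FPKM, against 102, 96.9 and 137 FPKM in CON cultures.

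Other genes of the response went either way in cow 2. ATF5, a transcription factor of the same family, was at 39.2 FPKM in the OA culture of cow 2, against 62.6 FPKM in its CON culture, while cows 1 and 3 stood at 43.3 and 35.3 FPKM in OA, against 41.8 and 38.8 FPKM in CON. TRIB3 was at 4.26 FPKM in the OA culture of cow 2, against 6.21 FPKM in its CON culture. DDIT4 was higher in that OA culture at 87.3 FPKM, against 74.7 FPKM in CON, and so was GDF15 by the values given above. ATF4 itself measured 374, 179.6 and 226 FPKM in OA cultures of cows 1, 2 and 3, against 326, 190.3 and 229.8 FPKM in CON cultures. For PSAT1 the OA culture of cow 2 was low against all 3 other cultures of that cow, where PA had 35.6 and MIX 43.0 FPKM. The OA culture of cow 1 was high against all 3 others of its cow, where PA had 20.8 and MIX 21.8 FPKM. Each cow has 1 library per treatment, so a cow's own difference and the variation of single libraries cannot be told apart. Over all genes the median size of the OA difference was 0.12 in cow 1, 0.11 in cow 2 and 0.10 in cow 3, beside 0.17, 0.17 and 0.08 for the 39 genes.

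**Figure D3:**
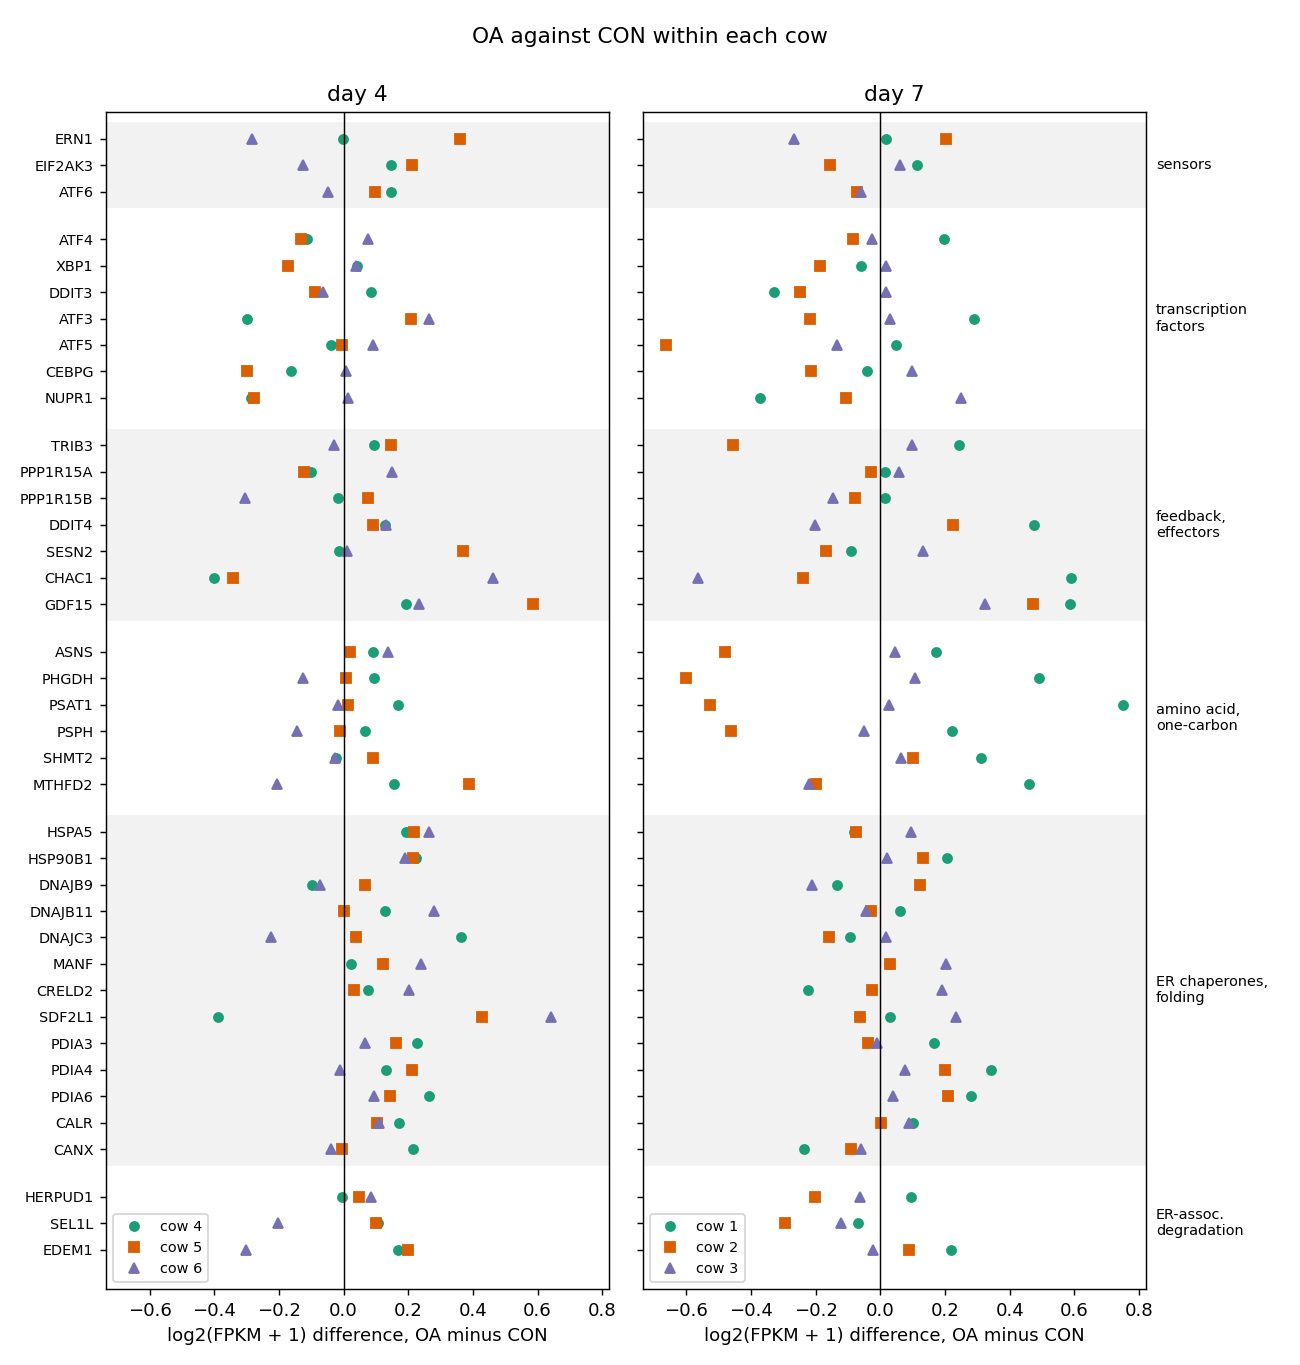
Difference in log2(FPKM + 1) between OA and CON within each cow for the 39 genes, with day 4 on the left and day 7 on the right; each point is 1 cow. At day 7 the amino acid enzymes split, with PSAT1, PHGDH, ASNS and PSPH above 0 in cow 1 and below 0 in cow 2, while at day 4 HSPA5 and HSP90B1 lie above 0 in all 3 cows.

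The mixture was set against CON in the same way. At day 4, 28 of 39 genes were higher in MIX, beside 49.8% of all genes, with a median of 0.04 beside -0.0006 for all genes. An unadjusted p under 0.05 was found for 2 genes or 5.1%, beside 3.48% of all genes. These were DDIT4 and GDF15, both effectors. DDIT4 measured 70.3, 47.3 and 169 FPKM in MIX cultures of cows 4, 5 and 6, above the CON values given earlier in 3 of 3 cows (0.23 ± 0.07, interval 0.08 to 0.38; edgeR adjusted p = 0.994). GDF15 measured 5.78, 1.502 and 12.2 FPKM in MIX cultures, against 3.74, 0.605 and 10.4 FPKM in CON cultures (0.50 ± 0.19, edgeR adjusted p = 0.994). HSPA5 differed by 0.11 (-0.03 to 0.25), DDIT3 by 0.11 (-0.07 to 0.28), ATF4 by 0.06 (-0.08 to 0.19), XBP1 by 0.04 (-0.10 to 0.19) and TRIB3 by 0.18 (-0.12 to 0.48), while the interval of ASNS was -0.15 to 0.14.

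By day 7 the mixture and CON differed by a median of 0.005 for the 39 genes, with 0 of 39 at an unadjusted p under 0.05, beside 3.41% of all genes. The smallest p was again that of DDIT4, now lower in MIX in 3 of 3 cows. It measured 146, 59.7 and 292 FPKM in MIX cultures of cows 1, 2 and 3, against 159, 74.7 and 373 FPKM in CON cultures (-0.26 ± 0.12, interval -0.54 to 0.01). CEBPG (-0.16 ± 0.08) and SESN2, a leucine sensor that restrains mTORC1 (0.13 ± 0.07), came next. HSPA5 differed by 0.02 (-0.09 to 0.14), XBP1 by -0.05 (-0.16 to 0.07), DDIT3 by -0.01 (-0.21 to 0.19), ATF4 by 0.01 (-0.16 to 0.18), TRIB3 by -0.10 (-0.44 to 0.24) and ASNS by 0.14 (-0.14 to 0.41).

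OA was also set directly against PA. For this comparison at day 4, 9 of the 39 genes or 23.1% had an unadjusted p under 0.05, beside 6.94% of all genes. GDF15, MTHFD2, HSPA5, HSP90B1, MANF and PDIA6 lay higher in OA in 3 of 3 cows, DDIT3 and DDIT4 lay lower in 3 of 3, and NUPR1 lay lower in 2 of 3. By role, 12 of the 13 ER chaperones were higher in OA and 6 of the 7 transcription factors lower, while 49.3% of all genes were higher. Of the other roles, 1 of 3 sensors, 2 of 7 feedback genes and effectors, 3 of 6 amino acid enzymes and 2 of 3 degradation genes were higher. The direct comparison uses the PA and OA cultures that each served above against the same CON cultures.

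NUPR1 had the smallest p of these, on chromosome 25 at 26082047 to 26083376, minus strand, in the files' coordinates. It measured 1016, 600 and 1358 FPKM in OA cultures of cows 4, 5 and 6, against 1432, 969 and 1269.8 FPKM in PA cultures. OA was lower in cows 4 and 5 and slightly higher in cow 6. The difference was -0.37 ± 0.10 (interval -0.57 to -0.17; edgeR adjusted p = 0.161).

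HSP90B1 differed by 0.23 ± 0.07 between OA and PA (edgeR adjusted p = 0.206), at 80.9, 196 and 252 FPKM in OA cultures and 71.7, 148 and 232 FPKM in PA cultures. MANF, an ER-resident protein with a growth-factor-like role, measured 28.6, 69.1 and 105 FPKM in OA cultures, against 28.0, 52.2 and 81.8 FPKM in PA cultures (0.28 ± 0.08, edgeR adjusted p = 0.254). OA was higher in 3 of 3 cows for both genes, and for MANF the gap was small in cow 4. The smooth muscle marker ACTG2 was called here as well (0.43 ± 0.09, edgeR adjusted p = 0.0466).

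At day 7 the same pair of treatments gave 8 of 39 genes or 20.5% with an unadjusted p under 0.05, beside 11.5% of all genes. PDIA4, GDF15, PDIA6, SHMT2, HSP90B1 and CALR were higher in OA in 3 of 3 cows, and DDIT3 and DNAJB9 lower in 3 of 3. Of the 13 ER chaperones and folding enzymes, 8 were higher in OA and 5 lower, while 53.9% of all genes were higher. PDIA4 differed by 0.24 ± 0.05 (limma adjusted p = 0.281), at 119, 130.2 and 178 FPKM in OA cultures of cows 1, 2 and 3 and 91.4, 113 and 161 FPKM in PA cultures. PDIA6 differed by 0.24 ± 0.07 (limma adjusted p = 0.321).

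GDF15, on chromosome 7 at 4778258 to 4780515, minus strand, in the files' coordinates, had the widest gap between OA and PA at day 7. It measured 91.2, 16.7 and 127 FPKM in OA cultures, against 59.8, 14.2 and 72.4 FPKM in PA cultures, higher in 3 of 3 cows. In limma the difference was 0.54 ± 0.12 (interval 0.27 to 0.81; adjusted p = 0.281). On the reads recovered from the same values, edgeR with the block gave 0.60 ± 0.10 and an adjusted p of 0.0469, beside 0.0586% of 13658 genes called. The 2 fits differ in test, scale and filter, so the call cannot be tied to any one of these, and GDF15 was higher in OA in both.

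The mean of NUPR1 at day 4 was 1194 ± 405 FPKM in MIX cultures, between 991.3 ± 379.9 FPKM in OA and 1224 ± 235 FPKM in PA cultures (SD, n = 3 each). At day 4 MIX against PA had 1 of the 39 genes with an unadjusted p under 0.05, or 2.6%, beside 3.26% of all genes. This was GDF15, at 5.78, 1.502 and 12.2 FPKM in MIX cultures and 3.73, 0.765 and 7.59 FPKM in PA cultures (0.71 ± 0.20, interval 0.30 to 1.11; edgeR adjusted p = 0.9997). EIF2AK3 (-0.21 ± 0.11) and MANF (0.16 ± 0.08) followed. At day 7 the same comparison gave 0 of 39, beside 3.92% of all genes, and its smallest p-values were those of PSPH (0.26 ± 0.17), DDIT4 (-0.17 ± 0.12) and DNAJB11 (-0.08 ± 0.05), each with a limma adjusted p of 0.999.

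MIX against OA gave 3 genes at day 4 with an unadjusted p under 0.05, which are 7.7% of the 39 beside 2.97% of all genes. NUPR1 measured 1154, 810.0 and 1617 FPKM in MIX cultures, against 1016, 600 and 1358 FPKM in OA cultures, higher in 3 of 3 cows (0.29 ± 0.10, edgeR adjusted p = 0.9997). HSP90B1 (-0.14 ± 0.07) and PDIA6 (-0.15 ± 0.07) were the other two. At day 7, 10 of 39 genes or 25.6% had an unadjusted p under 0.05, beside 10.4% of all genes. PDIA4 differed by -0.24 ± 0.05 (limma adjusted p = 0.299), at 92.9, 111 and 160.5 FPKM in MIX cultures and 119, 130.2 and 178 FPKM in OA cultures. GDF15 differed by -0.44 ± 0.12 (limma adjusted p = 0.350) and DDIT4 by -0.43 ± 0.12 (limma adjusted p = 0.361), and all 3 genes were lower in MIX in 3 of 3 cows. DDIT4 measured 146, 59.7 and 292 FPKM in MIX cultures, against 222, 87.3 and 324 FPKM in OA cultures.

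The calls of NUPR1 at day 4 changed with the libraries and genes that entered the fit. Without cow 6, and with the block, edgeR called NUPR1 in 5 of the 6 comparisons. For OA against PA its difference was -0.60 ± 0.06 (adjusted p = 2.78e-08), beside 1.46% of 13625 genes called. For OA against CON it was -0.30 ± 0.06 (adjusted p = 0.0117), beside 0.543% of genes called. For PA against CON it was 0.30 ± 0.06 (adjusted p = 0.0254), beside 0.147% of genes called. Against PA the MIX cultures differed by -0.29 ± 0.06 (adjusted p = 0.0310, 0.183% of genes called), and against OA by 0.31 ± 0.06 (adjusted p = 0.0361, 0.0587% of genes called). In cows 4 and 5 NUPR1 thus ordered as PA, then MIX or CON, then OA, whereas in cow 6 PA was lowest at 1269.8 FPKM and MIX highest at 1617 FPKM.

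Other genes called in that fit without cow 6 were DDIT4 for PA against CON (0.34 ± 0.07, adjusted p = 0.0254) and HSP90B1 for OA against PA (0.29 ± 0.06, adjusted p = 0.00873). NUPR1 also passed with all cows where genes of low counts were kept in the fit. There the difference was -0.37 ± 0.06 for OA against PA (adjusted p = 8.33e-06), beside 0.6% of 19514 genes called, and 0.29 ± 0.06 for MIX against OA (adjusted p = 0.0202), beside 0.0359% of genes called. With only the compared groups fitted, MIX against OA gave 0.29 ± 0.05 (adjusted p = 3.28e-04), beside 0.223% of 13003 genes called. The direction of NUPR1 in these comparisons was the same in each fit named here, and its SE ranged over 0.05 to 0.10.

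Whether the effects differed between days was tested for 4 comparisons, taking the day 7 effect minus the day 4 effect with the cow as a block. None of the 39 genes was called, limma called 0% of the 12132 genes tested with or without the block, and 7 of the 156 values had an unadjusted p under 0.05, beside 5.37% of the values of all genes, a share near that background. DDIT4 was lower in MIX than in CON in 3 of 3 cows at day 7 and higher in 3 of 3 at day 4, a difference of -0.50 ± 0.15 (interval -0.81 to -0.19; limma adjusted p = 0.979). For OA against PA it was higher in OA in 3 of 3 cows at day 7 and lower in 3 of 3 at day 4, a difference of 0.45 ± 0.15 (limma adjusted p = 0.634). DDIT4 for PA against CON differed between days by -0.40 ± 0.15 (limma adjusted p = 0.999). HSPA5 differed by -0.25 ± 0.08 for OA against CON (limma adjusted p = 0.835) and by -0.24 ± 0.08 for OA against PA (limma adjusted p = 0.656). In 10 of the 156 values every cow of one day lay one way and every cow of the other day the opposite way, beside 3.3% of the values of all genes, and DDIT4 was the gene with 2 of them.

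Genes of 4 related lists gave the surroundings of the 39: other ER folding and quality control (36 tested), other integrated stress genes (27), cytosolic tRNA synthetases with the tRNA exporter XPOT (13) and heat shock proteins (16). With the block 0 genes of any list were called in any comparison within a day. For PA against CON the medians were 0.037, 0.035, -0.003 and -0.001 at day 4, in that order of lists, and -0.015, -0.045, 0.007 and 0.022 at day 7. For OA against CON they were 0.042, -0.049, 0.030 and 0.048 at day 4. Higher in OA there were 27 of 36, 11 of 27, 12 of 13 and 13 of 16 genes, beside 47.9% of all genes. At day 7 the OA medians were 0.023, 0.047, -0.056 and -0.014. The genes higher in OA then were 20 of 36, 16 of 27, 3 of 13 and 7 of 16, beside 52.1% of all genes. FKBP11, an ER prolyl isomerase, had 24.3 ± 15.3 FPKM in OA cultures and 20.5 ± 13.8 FPKM in CON cultures at day 4 (SD, n = 3 each), a difference of 0.27 ± 0.10 (edgeR adjusted p = 0.761). JDP2, a repressor related to ATF3, had the smallest p for OA against PA at day 7, at 47.6 ± 27.6 FPKM in OA and 37.9 ± 22.4 FPKM in PA cultures (SD, n = 3 each; 0.33 ± 0.07, limma adjusted p = 0.272). EDEM2, an ER mannosidase of the degradation pathway, was at 62.0 ± 26.3 FPKM in OA cultures and 51.7 ± 24.4 FPKM in PA cultures at day 7 (SD, n = 3 each; 0.27 ± 0.07, limma adjusted p = 0.291). BCL2L11 (BIM), a pro-apoptotic target of CHOP, stood at 5.31 ± 3.27 FPKM in OA cultures and 6.72 ± 3.44 FPKM in PA cultures at day 4 (SD, n = 3 each; -0.38 ± 0.11, edgeR adjusted p = 0.248). Of the 12 tRNA synthetases, many of them targets of ATF4, 10 lay lower in OA than in PA at day 7, beside 46.1% of all genes, with a median of -0.05. All 12 lay higher in MIX than in OA at day 7, beside 48.6% of all genes, with a median of 0.08, and 0 were called. Both comparisons use the same OA cultures. At day 4 the direction was not the same. There all 12 lay higher in OA than in CON, beside 47.9% of all genes, with a median of 0.03. For OA against PA at day 4, 8 lay higher and 4 lower.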

How the data were processed

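Per the labels and file headers, the authors deposited 2 tables. The day 4 table holds raw counts per gene and library, FPKM, and the authors' own log2 fold changes with p-values and adjusted p-values; the day 7 table holds FPKM values alone, as deposited by the authors. FPKM values were deposited relative to a scaled library size. The submitters' processing notes name FastQC 0.11, StringTie 1.3.3b and featureCounts 1.5.0-p3; the roles of these tools, and the aligner, build and strand used, were not given in the sources used here. Without a stated strand setting, reads of overlapping genes cannot be told apart.

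Day 7 reads were recovered from FPKM and gene length (100% whole within 0.01) and used only as an alternative. Day 4 counts were filtered with filterByExpr, scaled by TMM and tested with edgeR 4.0.16 (quasi-likelihood). Day 7 values of at least 1 FPKM in at least 3 libraries were tested as log2(FPKM + 1) with limma 3.58.1. DESeq2 1.42.0 was an alternative; R was 4.3.3, Python 3.11.15 and matplotlib 3.10.9. P-values were two-sided and adjusted by Benjamini and Hochberg over all genes tested. The planned main fits had 4 group means; fits with the cow as a block are given because a cow number names 1 animal in the 4 groups of a day. Deviations from group means correlated at r = 0.71 to 0.92 for same-cow pairs at day 4 and 0.77 to 0.86 at day 7, and at most 0.14 and -0.31 for other pairs. The fits were tested on simulated data, with changes larger than most of those printed here and only in well-counted genes. That test therefore does not cover small changes or low genes.

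The 39 genes, the related lists and the tests were chosen with earlier results of these data known. Log2 differences with errors are printed for the 3 genes with the smallest p in each comparison with a mean of at least 1 FPKM, for any called, and against CON for DDIT3, DDIT4, TRIB3, ATF4, HSPA5, XBP1 and ASNS; PSAT1, PHGDH, PSPH, SHMT2, ATF5 and SEL1L at day 7 were described by cow after their values were seen. Of 96 genes in the related lists 94 were found, 13 by an older symbol. Of each list the gene with the smallest p was eligible. A count of 3 corresponds to at most 0.222 CPM at day 4 and 0.213 at day 7, for counting error only. Other doses, other mixtures and the antagonist arms are not analysed here, and no promoter or protein sequence is used.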

Additional observations from a re-analysis of the deposited data

How the results depend on the processing

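In the fits without the block, 0 of the 39 genes were called in every comparison under every alternative run. With the replicate block (the cow), which alone changed no call, 1 gene was called for PA against CON at day 4 and 1 for MIX against OA when only the compared groups were fitted, 1 for OA against PA and 1 for MIX against OA at day 4 without the filter, and 1 for OA against PA at day 7 with edgeR on recovered reads. Leaving out each cow in turn gave 0 to 2 genes for PA against CON and for OA against PA at day 4, and 0 to 1 for OA against CON, MIX against PA and MIX against OA, with each call made without cow 6.

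The median difference of the 39 genes for MIX against PA at day 4 was 0.0177 without the block. It was -0.00157 with it, -0.00154 with DESeq2 and the block, -0.00186 with RLE scaling and the block, -0.00328 without the filter, -0.00465 with a mean of at least 50 counts and -0.00237 with only the compared groups, each with the block, and 0.000197 with limma, with or without it. Leaving out each cow gave -0.0190 to 0.0239. The medians also moved over -0.0435 to 0.0478 for MIX against OA at day 4, -0.0251 to -0.00215 for PA against CON at day 7 and -0.0483 to 0.0773 for OA against CON at day 7, where the sign turned without cow 2; for MIX against OA it turned without cow 5. The causes were not tested.

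Of the single genes, 19 differences against CON turned sign in some fit, while none of them was called in a fit where it was turned; the largest turned value was 0.170, for TRIB3 in OA against CON at day 7 without cow 2. HSPA5 for PA against CON at day 4 was -0.00552 without the block and 0.0133 with it. Without the block it was 0.00296 with DESeq2, 0.00297 with RLE scaling, 0.0018 without the filter, 1.46e-06 with a mean of at least 50 counts and 0.0216 with limma. With the block the same fits gave 0.0208, 0.0209, 0.0165, 0.0161 and 0.0216, and only the compared groups 0.0105. ASNS for MIX against CON at day 4 was 0.0118 without the block and -0.00394 with it, and with it -0.00247 without the filter, -0.00431 with a mean of at least 50 counts and -0.00341 with only the compared groups. With edgeR on recovered reads HSPA5 for OA against CON at day 7 was 0.00381 and DDIT3 for MIX against CON 0.00355.

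Leaving out each cow at day 4 gave, for PA against CON, -0.00792 to 0.0729 for ASNS and -0.0547 to 0.103 for HSPA5. For OA against CON it gave -0.137 to 0.0134 for ATF4, -0.0865 to 0.00974 for DDIT3 and -0.0870 to 0.0410 for XBP1. For MIX against CON it gave -0.0483 to 0.0513 for ASNS, -0.00897 to 0.126 for ATF4 and -0.0163 to 0.0974 for XBP1. At day 7 the ranges for PA against CON were -0.0053 to 0.0612 for ATF4, -0.218 to 0.0484 for DDIT4, -0.0189 to 0.0614 for HSPA5, -0.0324 to 0.143 for TRIB3 and -0.0858 to 0.0201 for XBP1. For OA against CON they were -0.218 to 0.109 for ASNS, -0.0551 to 0.0843 for ATF4, -0.0791 to 0.00959 for HSPA5 and -0.179 to 0.170 for TRIB3. For MIX against CON they were -0.0305 to 0.0481 for ATF4 and -0.0859 to 0.0313 for DDIT3.

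For PA against CON at day 4 the 95% intervals lay within 2-fold for 39 of the 39 genes with the block and for 17 without it.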
